A study of Trichoderma reesei RUT C-30 with 16 samples.

Results

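The silent block is a stretch near the start of chromosome VI of *Trichoderma reesei*, and its members are the 38 genes of the deposited QM6a annotation on that chromosome whose lowest exon start lies between positions 80000 and 180000. These are 38 of 10785 annotated genes, and 33 of them are among the 10008 genes of the count tables. The other 5 (TrF0014C, TrF0016W, TrF0021W, TrF0032W and TrF0048C) have no counts and were not analysed here. The window was chosen by the counts of its genes in these same 16 libraries, many of which were near 0, so the silence of the members is described and not tested. The low stretch itself ran from TrF0012W to TrF0045W, and 3 counted members lay to the right of it. Of these, TrF0046C and TrF0047C were expressed, while TrF0049W had a median of only 11 counts per library.

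The study asked what the transcription factor gene *res2* does in protein secretion and in the response to secretion stress. RNA with poly(A) tails was sequenced from mycelia of Rut-C30, a cellulase hyperproducing strain obtained from the wild type QM6a by several rounds of mutagenesis, and of Δ*res2*, which is Rut-C30 with *res2* replaced by a hygromycin resistance cassette. Both strains therefore carry every other mutation of Rut-C30, among them a truncated *cre1* gene for the carbon catabolite repressor. Each strain was grown in fed-batch culture in 4 conditions with 2 cultures each. These were glucose (GC), lactose (LC), which induces cellulases, and both carbon sources with 10 mM dithiothreitol for 2 h (GD and LD). Dithiothreitol (DTT) is a reducing agent that disturbs the folding of secreted proteins.

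In filamentous fungi, genes close to the chromosome ends often lie in condensed chromatin and are transcribed weakly or only under special conditions, and genes for accessory metabolism are often placed there in groups. A strain bred by mutagenesis can also lack segments of the reference genome, and large deletions relative to QM6a are known in Rut-C30. The reads of both strains were aligned to QM6a, and reads with more than 1 alignment were removed. A gene that is present but not transcribed, a gene that is missing from the strain and a gene whose reads all align elsewhere too would all have a count near 0, and these cases cannot be told apart in RNA counts. Which of them holds for the genes below was not tested. None of the sources used here annotates a function for the members, so no role can be given for any of them. By span and relative position, 20 of the 38 members could be paired with a RefSeq locus tag, among them TrF0035W (TRIREDRAFT_65097), TrF0036C (TRIREDRAFT_79725) and TrF0049W (TRIREDRAFT_65039).

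The libraries held between 20351784 and 35679977 counts on genes, so that 3 counts, the limit that a count of 0 allows, corresponded to between 0.0841 and 0.147 counts per 1e6 counts of the library (CPM). These limits cover counting error only. Duplicate cultures were closer to each other in lactose (r between 0.993 and 0.996 across genes) than in glucose (r between 0.882 and 0.956). The sources used here do not pair *res2* with a gene of the count tables. A search over all genes, made after the values were seen, found 1 gene (TrA1112W) with at least 100 counts in every Rut-C30 library and at most 20 in every Δ*res2* library, with between 2900 and 7046 counts (median 5114) in Rut-C30 and between 0 and 2 in Δ*res2*.

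A gene was called silent when it had at most 3 counts in each of the 16 libraries. By this limit 24 of the 33 counted members (72.7%) were silent, while 385 of all 10008 counted genes (3.85%) were. The silent members had 36 counts in all, out of 440912869 counts in the 16 libraries. Between 0 and 6 counts fell on them in any library. Per kilobase of coding length, the 24 silent members together reached 0.00286 CPM, and the median of all counted genes with a position was 17.6 CPM per kilobase. The whole stretch from TrF0012W to TrF0045W (chromosome VI, 87463 to 172633) spanned 85.2 kb and had between 46 and 200 counts per library on its 30 counted genes, most of them on 3 genes described below (TrF0022W, TrF0029W and TrF0035W).

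**Figure D1:**
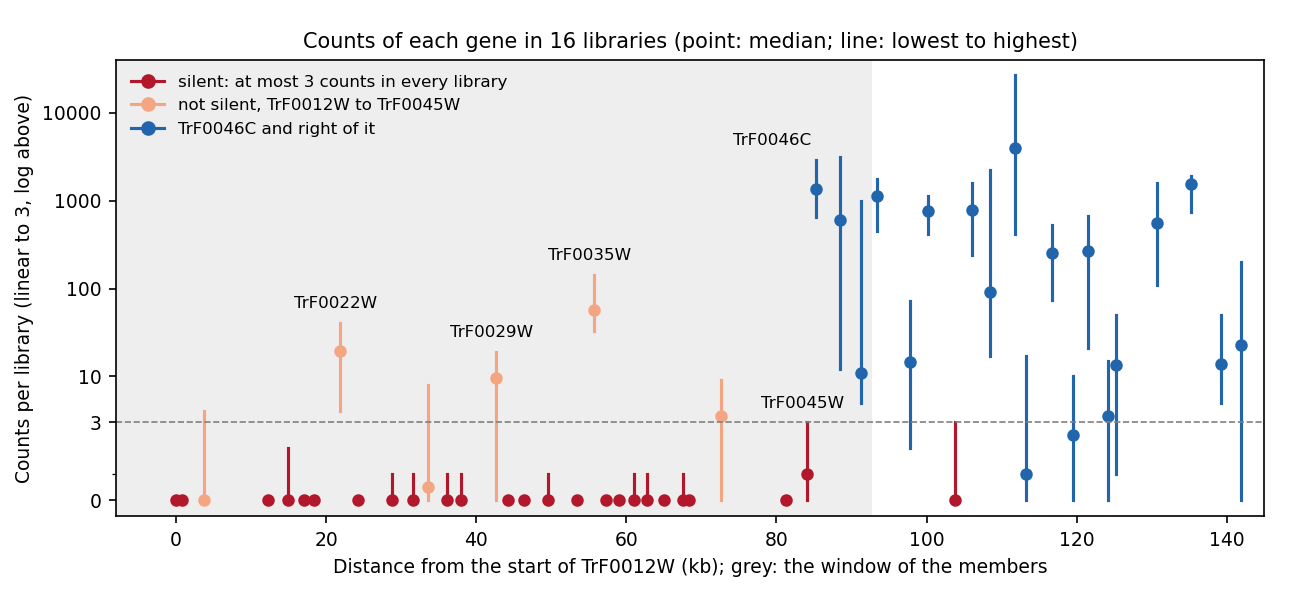
Counts per library of the counted genes of the block and of their neighbours to the right (y axis, linear up to 3 counts and logarithmic above) against the distance of each gene from the start of TrF0012W (x axis, kb). Points are medians of the 16 libraries and lines run from the lowest to the highest library; the lines of the 24 silent members end at or under the dashed line of 3 counts, and TrF0046C is the first gene from the left with at least 661 counts in every library.

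Of the silent members, 14 had a count of 0 in all 16 libraries, which allows up to 0.0068 CPM for each over the whole series. Over all genes, 48 (0.48%) had no count in any library, so 29.2% of them lay in the block. With at most 10 counts allowed, 27 members passed, and 7.84% of all genes did. TrF0017C (99648 to 101024, coding length 1377 bases, TRIREDRAFT_64959) and TrF0042C (155821 to 158999, coding length 2973 bases) were 2 of these 14, and they bound the run within which silence was first noted. The run held 26 annotated and 24 counted genes over 59.4 kb. Of the 24, 20 were silent, with 11 at 0 in all libraries and 9 with between 1 and 3 counts in their highest library. The run was thus not silent throughout, because TrF0022W, TrF0026W, TrF0029W and TrF0035W had more than 3 counts in some library.

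The longest unbroken row of silent genes had 7 members and ran from TrF0036C to TrF0042C (144786 to 158999). TrF0036C (TRIREDRAFT_79725), TrF0037C, TrF0040C and TrF0042C had 0 counts in every library. TrF0038C had 1 count in LC replicate 1 of Rut-C30 and 1 in LC replicate 1 of Δ*res2*. TrF0039W had 1 count in GC replicate 2 and 1 in LD replicate 1 of Rut-C30, and 1 in LC replicate 1 of Δ*res2*. TrF0041W had 1 count in LD replicate 1 of Δ*res2*. These 6 counts fell in 5 libraries of both strains and in no library with glucose and DTT. To the left of the row, TrF0035W separated it from TrF0030C to TrF0034W, of which TrF0030C, TrF0031C and TrF0034W had no count and TrF0033C had 1 count in LD replicate 1 of Rut-C30 and 1 each in LC replicate 2 and LD replicate 2 of Δ*res2*. TrF0033C overlaps by 172 bases with TrF0032W on the other strand, and the sources used here do not say whether counting used the strand. Elsewhere in the genome, the longest such row had 5 genes (TrD0501W to TrD0505W on chromosome IV) and the next 4 (TrG0194W to TrG0197W on chromosome VII). The contrast depended on the limit. With 0 counts in every library the longest row had 2 genes in the block and 2 elsewhere, with at most 10 counts it had 10 and 5, and with at most 1 CPM, a limit added after seeing the data, it had 11 and 9.

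Silence was found in both strains. The silent members had 20 counts in all in the 8 Rut-C30 libraries and 16 in the 8 Δ*res2* libraries. In each strain, 7 of the 24 had any count, and 10 had one in either strain. The most counts on a silent member in one strain only were those of TrF0018W, with 2, 1, 1 and 2 counts in GC replicate 1, both LC libraries and LD replicate 1 of Rut-C30 and 0 in every Δ*res2* library, which is within the limit of 3 counts per library. Taken over the libraries of 1 strain only, 25 members were silent in Rut-C30 (TrF0026W is added) and 25 in Δ*res2* (TrF0015W is added).

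**Figure D2:**
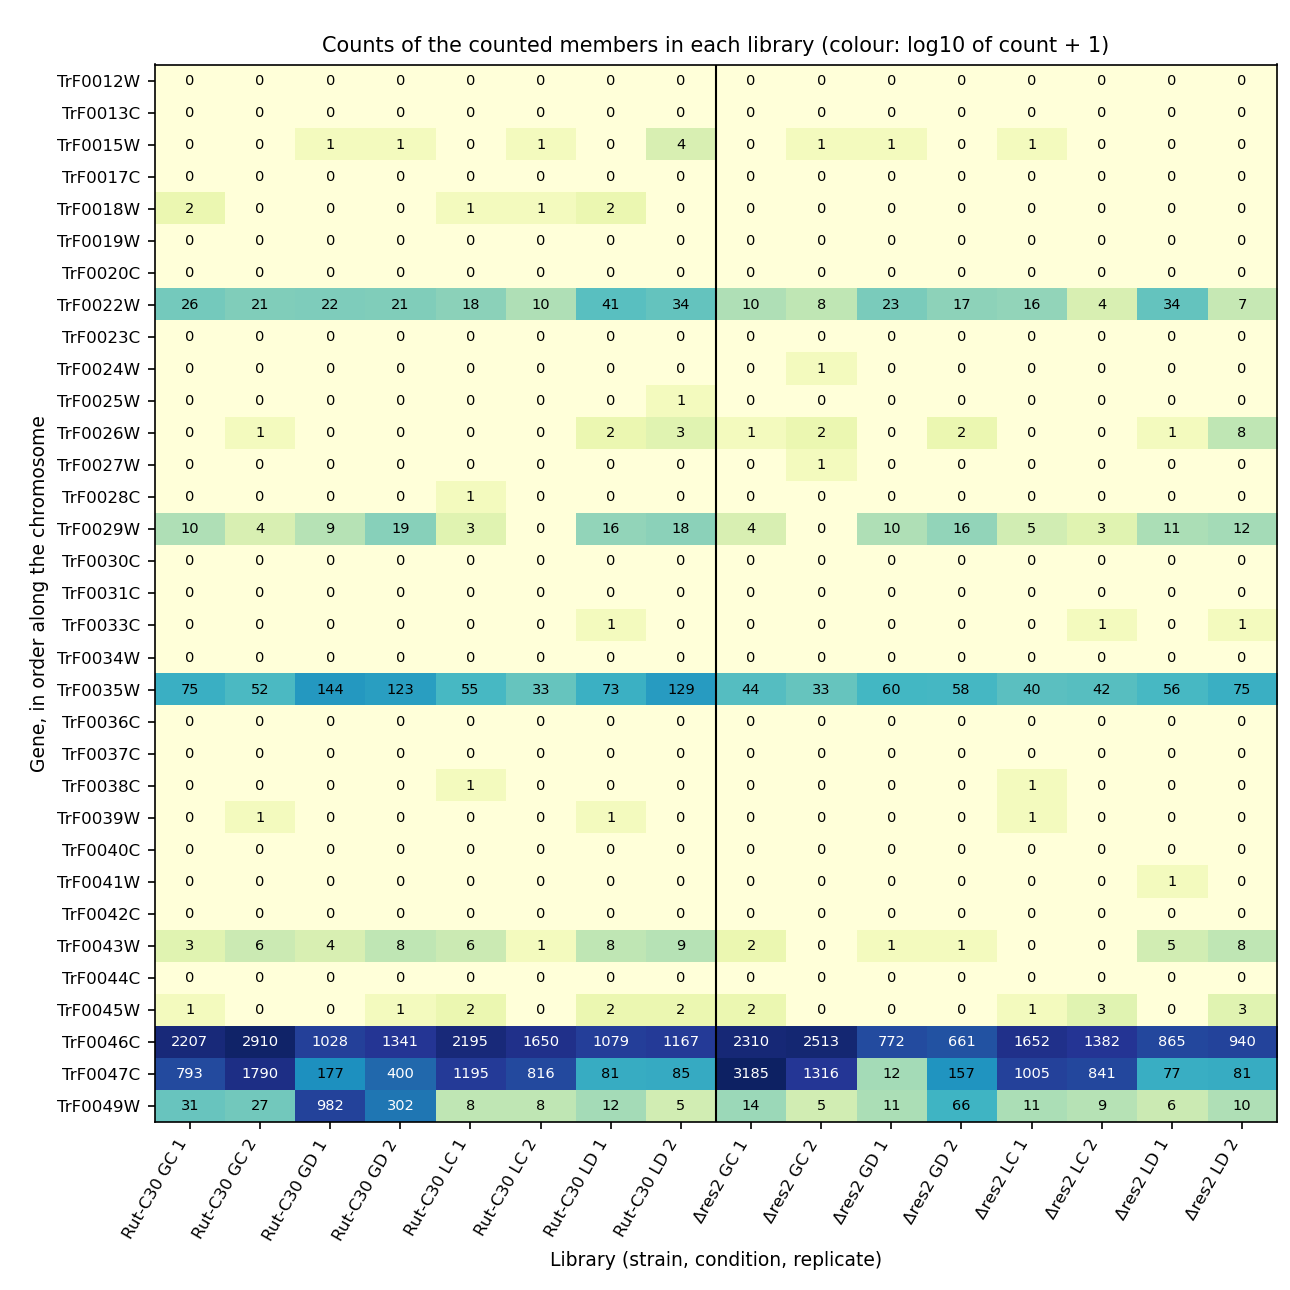
Counts of the 33 counted members (rows, in their order along the chromosome) in each of the 16 libraries (columns; Rut-C30 left and Δ*res2* right of the line), with colour for the log10 of the count plus 1. Rows of 0 fill the block in both strains, TrF0022W, TrF0029W and TrF0035W cross it as faint bands of up to 144 counts, and the last 3 rows hold up to 3185.

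The block held more silent genes than any other of the 100 kb windows compared with it. On each chromosome the windows were laid with a border at position 80000, so that 1 of them is the block. The block itself was chosen from these same counts. Of the windows, 342 held at least 10 counted genes, the block included, and the rest were left out. Among those left out, 1 on chromosome IV had 5 silent genes of 5 and 1 on chromosome II had 1 of 1. In the other windows of the 342 a median of 2.94% of the genes were silent, the highest share was 26.1% and the highest number was 8. In 44.6% of them no gene was silent. On chromosome VI 82 of 1034 genes (7.93%) were silent, and on the other chromosomes between 2.78% and 4.44%. The 82 include the 24 silent members of the block itself.

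**Figure D3:**
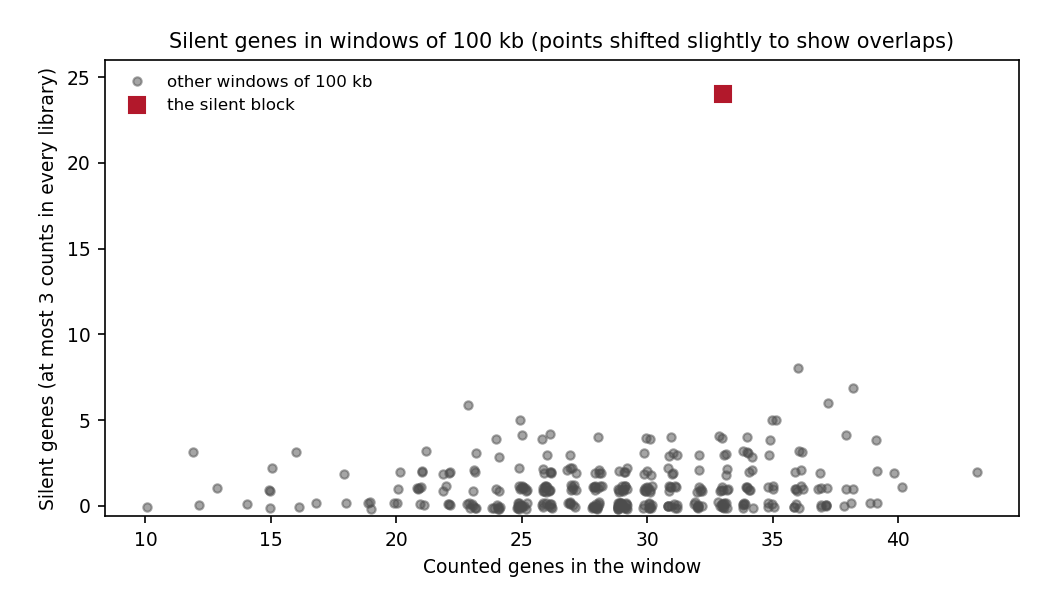
Number of silent genes (y axis) against the number of counted genes (x axis) in windows of 100 kb with at least 10 counted genes, with 1 point per window. The block lies at 24 silent of 33 counted genes, and the other windows at 8 or fewer.

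The coding lengths of the silent members ran from 246 to 2973 bases. Their median was 1178 bases, near that of all counted genes with a position (1218 bases), while the 360 silent genes outside the block had a median of 590 bases. A longer coding sequence collects more reads at the same level. A single exon was annotated for 25% of the silent members, for 40.8% of the silent genes outside and for 22.4% of all counted genes. For 16 of the 24 (66.7%) the annotation marks the model as unchanged from that of the Joint Genome Institute (JGI), against 39.7% of the silent genes outside the block and 59.7% of all counted genes. Of the silent members, 10 (41.7%) lay on the plus strand, against 49.2% of all counted genes. These lengths and shares are given as a description, and whether they bear on the silence was not tested.

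There were 6 members in the low stretch above the limit of silence, and for 3 of them the counts stayed at or under 10 in every library. TrF0015W had 4 counts in LD replicate 2 of Rut-C30, 1 count in each of 6 other libraries and 0 in 9. TrF0026W had 8 counts in LD replicate 2 of Δ*res2*, at most 3 elsewhere and 20 in all. TrF0043W (160137 to 168441, TRIREDRAFT_65172), with 7797 bases the longest coding sequence in the block, had between 1 and 9 counts in Rut-C30 and between 0 and 8 in Δ*res2*. The pairs of cultures of Rut-C30 held 3 and 6 (GC), 4 and 8 (GD), 6 and 1 (LC), and 8 and 9 (LD) counts. Those of Δ*res2* held 2 and 0 (GC), 1 and 1 (GD), 0 and 0 (LC), and 5 and 8 (LD), so the strains overlapped. TrF0015W, TrF0026W and TrF0029W below were singled out after their values were seen.

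The highest gene inside the stretch was TrF0035W (143156 to 144112, plus strand, 1 exon, TRIREDRAFT_65097), directly left of the longest silent row. Its raw counts in Rut-C30 were 75 and 52 with GC, 144 and 123 with GD, 55 and 33 with LC, and 73 and 129 with LD. In Δ*res2* it had 44 and 33, 60 and 58, 40 and 42, and 56 and 75 counts in these conditions. Every library thus held reads counted on this gene model, with flanking silent genes on both sides. Its level per length was 2.54 CPM per kilobase on average over the libraries, below the median of all genes (17.6). TrF0022W (109312 to 111173, TRIREDRAFT_65191) had between 10 and 41 counts in Rut-C30 (median 21.5) and between 4 and 34 in Δ*res2* (median 13), which overlap. TrF0029W (130062 to 131435) had between 0 and 19 counts in Rut-C30 (median 9.5) and between 0 and 16 in Δ*res2* (median 7.5), again with overlap. These 3 genes were the only ones of the stretch with more than 10 counts in any library.

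On the left side, whether expression resumed could not be seen. No gene left of TrF0012W on chromosome VI is in the count tables. The annotation has 2 genes there, TrF0003W and TrF0004C, and 70.7 kb without any annotated gene between TrF0004C and TrF0012W. On the right side, the change came between neighbouring genes. TrF0044C (168720 to 169568) had 0 counts in every library. TrF0045W (171488 to 172633, plus strand, TRIREDRAFT_64996) had at most 3 counts in any library and 17 in all. TrF0046C (172692 to 174454, minus strand), whose annotated end lies 58 bases away, had between 661 and 2910 counts per library and 24672 in all.

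From TrF0046C to the right, expressed and weakly counted genes alternated. TrF0047C (175888 to 176164) had between 12 and 3185 counts and TrF0049W (178768 to 179970) between 5 and 982. Per kilobase of coding length, TrF0047C, with a coding length of only 228 bases, stood at 126 CPM on average. TrF0046C stood at 39.0 and TrF0049W at 2.74, against 2.54 for TrF0035W and 0.44 for TrF0022W. The mean of TrF0049W rested largely on the GD cultures of Rut-C30 (982 and 302 counts). Its median over the libraries was 11 counts, under that of TrF0035W (57). Beyond the window, TrF0050W had between 448 and 1752 counts and TrF0052W between 422 and 1146. Of the 17 counted genes between the end of the window and position 230000, 1 was silent (TrF0053W, 5 counts in all), and 9 had at least 10 counts in every library. Right of TrF0045W, a silent gene thus stood alone between expressed ones.

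Conditions were compared for the 6 members that passed edgeR's filter on low counts, TrF0022W, TrF0029W, TrF0035W, TrF0046C, TrF0047C and TrF0049W. The other 27 counted members did not pass this filter, since too few reads fell on them. Each comparison was averaged over both strains in 1 fit of all 16 libraries, and genes were called DE (differentially expressed) by the study's limits, which are 0.005 for the adjusted p, 2 for the size of the log2 fold change and 100 for the mean normalized count. TrF0022W, TrF0029W and TrF0035W lay under this mean, so they could pass only the wider limit of an adjusted p under 0.05. In an edgeR fit without the filter, TrF0043W (log2 fold change 3.37 ± 0.92, adjusted p = 0.010) and TrF0026W (4.68 ± 1.56, adjusted p = 0.033) passed it in LD/LC. These genes had at most 9 and 8 counts in any library. The difference of Δ*res2* from Rut-C30 for TrF0043W in that fit was -2.10 ± 0.61 (adjusted p = 0.40). Values below are counts scaled to a common library size (normalized counts).

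**Figure D4:**
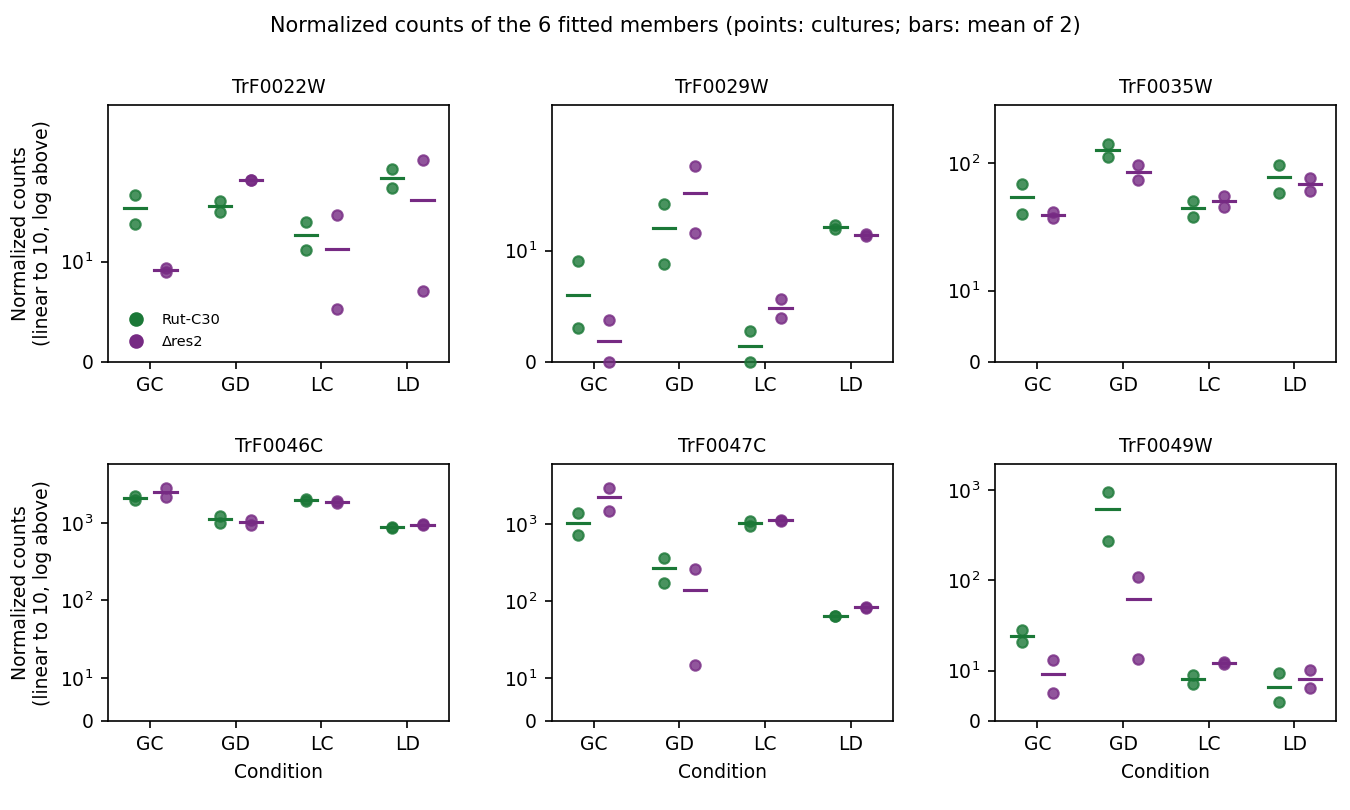
Normalized counts (y axis, linear up to 10 and logarithmic above) of the 6 fitted members in the 4 conditions (x axis), with 1 point per culture and a bar at the mean of 2 cultures, Rut-C30 in green and Δ*res2* in purple. TrF0046C and TrF0047C lie lower with DTT (GD and LD) in both strains, and TrF0049W reaches 960 in 1 culture of Rut-C30 with glucose and DTT.

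The gene at the right border, TrF0046C, was lower with DTT on both carbon sources. In Rut-C30 the GC cultures had 1995 and 2234 normalized counts, the GD cultures 1005 and 1206, the LC cultures 2025 and 1901 and the LD cultures 862 and 876. In Δ*res2* it had 2163 and 2829, 945 and 1101, 1882 and 1824, and 934 and 954. The cultures with DTT lay under those without in both strains and on both carbon sources, and the groups did not overlap. The log2 fold change was -1.11 ± 0.13 (SE) for GD/GC (adjusted p = 6.2e-05, edgeR) and -1.07 ± 0.13 for LD/LC (adjusted p = 5.6e-05). Neither reached the fold limit for a DE call. By the wider limit the gene fell in both comparisons, with each library left out in turn and under each alternative tried.

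TrF0047C, the second gene right of the border, fell more. In Rut-C30 the GC cultures had 717 and 1374 normalized counts, the GD cultures 173 and 360, the LC cultures 1103 and 940 and the LD cultures 64.7 and 63.8. For Δ*res2* these were 2983 and 1482 (GC), 14.7 and 261 (GD), 1145 and 1110 (LC), and 83.2 and 82.2 (LD). Cultures with and without DTT did not overlap on either carbon source, and the 4 LD cultures lay within 63.8 to 83.2 while the 4 GD cultures spread from 14.7 to 360. TrF0047C was DE in LD/LC (log2 fold change -3.88 ± 0.66, adjusted p = 0.00047) and in GD/GC (-3.00 ± 0.63, adjusted p = 0.0021). The LD/LC call was made with each of the 16 libraries left out. The GD/GC call was lost at the limit of 0.005 without GC replicate 2 (adjusted p = 0.0077), GD replicate 1 (0.0137) or GD replicate 2 (0.0064) of Rut-C30 and without GC replicate 1 of Δ*res2* (0.0101), within a range of adjusted p over all 16 libraries left out from 1.9e-05 to 0.0137. The value itself moved to -4.61 without GD replicate 2 and to -2.49 without GD replicate 1 of Δ*res2*. The response in glucose had a log2 value of -1.97 ± 0.85 for Rut-C30 and of -4.03 ± 0.93 for Δ*res2*, and their difference (-2.06 ± 1.18) did not pass the test (adjusted p = 0.91).

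TrF0049W, the last counted member (TRIREDRAFT_65039), was high with glucose and DTT in some cultures. In Rut-C30 the GC cultures had 28.0 and 20.7 normalized counts, the GD cultures 960 and 272, the LC cultures 7.38 and 9.22 and the LD cultures 9.59 and 3.75. For Δ*res2* these were 13.1 and 5.63 (GC), 13.5 and 110 (GD), 12.5 and 11.9 (LC), and 6.48 and 10.1 (LD). Both GD cultures of Rut-C30 lay above every other library, and GD replicate 1 of Δ*res2* lay within the range of GC, so that GD and GC overlapped, while every GD culture lay above every LD culture. TrF0049W was DE in GD/GC (3.66 ± 0.65, adjusted p = 0.00075) and in LD/GD (-4.68 ± 0.69, adjusted p = 0.0025). Without GD replicate 1 of Rut-C30, the GD/GC value was 3.07 (adjusted p = 0.0032) and the call was lost because the mean count fell under 100, and the LD/GD value was -4.09 (adjusted p = 0.0070). Without GD replicate 2 of Δ*res2* both calls were kept, with smaller values of 2.57 (adjusted p = 0.0024) in GD/GC and -3.59 (adjusted p = 0.0016) in LD/GD. The GD/GC call was also lost without GC replicate 2 of Δ*res2* (adjusted p = 0.0054, the highest over the libraries left out). The LD/GD call was lost as well without any of the 4 LC or the 4 LD libraries (adjusted p between 0.0061 and 0.0222). In LD/LC its value was -0.43 ± 0.70 (adjusted p = 0.62), and the difference between the responses in lactose and glucose was -4.09 ± 0.95 (adjusted p = 0.026, with 7.41% of all genes under 0.05). For Rut-C30 the response in glucose was 4.65 ± 0.92, for Δ*res2* it was 2.66 ± 0.92, and the difference (-1.99 ± 1.24) did not pass the test (adjusted p = 0.92).

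Inside the silent stretch, TrF0035W was higher with DTT. Its normalized counts in Rut-C30 were 67.8 and 39.9 with GC, 141 and 111 with GD, 50.7 and 38.0 with LC, and 58.3 and 96.8 with LD. In Δ*res2* it had 41.2 and 37.2, 73.4 and 96.6, 45.6 and 55.4, and 60.5 and 76.1. The cultures with DTT lay above those without on each carbon source, with no overlap. By the wider limit it rose in GD/GC (log2 fold change 1.17 ± 0.27, adjusted p = 0.0041), and this held with each library left out. In LD/LC its value was 0.62 ± 0.27 (adjusted p = 0.072).

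TrF0029W, with at most 26.6 normalized counts, rose by the wider limit in GD/GC (2.15 ± 0.67, adjusted p = 0.019) and in LD/LC (2.16 ± 0.71, adjusted p = 0.022). It lay between 0 and 9.04 in GC and between 8.80 and 26.6 in GD, which overlap, and between 0 and 5.69 in LC and between 11.9 and 13.5 in LD, which do not. Its GD/GC value missed the limit of 0.05 without GC replicate 2 (adjusted p = 0.052) or GD replicate 2 (0.065) of Rut-C30. In LD/LC it did so without LC replicate 2 (0.073) or LD replicate 2 (0.051) of Rut-C30 and without LC replicate 1 (0.053), LC replicate 2 (0.070) or LD replicate 2 (0.052) of Δ*res2*. The GD/GC value was 1.71 without GC replicate 2 and 4.22 without GC replicate 1 of Δ*res2*, and the LD/LC value 1.74 without LC replicate 2 and 4.01 without LC replicate 1 of Rut-C30. In single strains the GD/GC value was 1.11 for Rut-C30 (adjusted p = 0.35) and 3.19 for Δ*res2* (0.029), and the LD/LC value was 3.03 for Rut-C30 (0.039) and 1.29 for Δ*res2* (0.30). TrF0022W had log2 fold changes of 0.82 ± 0.49 in GD/GC (adjusted p = 0.18) and 0.95 ± 0.49 in LD/LC (adjusted p = 0.12), and its cultures with and without DTT overlapped on both carbon sources.

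In all, 2 of the 6 fitted members were DE in GD/GC (10.4% of all 9101 fitted genes were), 1 in LD/LC (11.9%) and 1 in LD/GD (0.736%). By the wider limit it was 5 in GD/GC (54.6% of all genes), 3 in LD/LC (57.4%) and 1 in LD/GD (14.3%). The 5 in GD/GC were 3 that rose (24.8% of all genes) and 2 that fell (29.8%), and the 3 in LD/LC were 1 that rose (27.1%) and 2 that fell (30.3%). With so few members fitted, shares of this size are not a result about the block. Within single strains, the contrast is 2 cultures against 2, with the spread taken from the fit of all 16 libraries. By this contrast, edgeR called 1 member in GD/GC of Rut-C30 (TrF0049W, 6.45% of all genes). There 3 had an adjusted p under 0.05. In GD/GC of Δ*res2* it called 0 (8.45%), although 6 had an unadjusted p and 5 an adjusted p under 0.05. It called 0 in LD/LC of Rut-C30 (9.44%, with 3 at an unadjusted p under 0.05) and of Δ*res2* (8.96%, with 2), and 0 in LD/GD of Rut-C30 (0.0879%, with 2) and of Δ*res2* (0.143%, with 1).

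Between the carbon sources without DTT, no member was DE in LC/GC by edgeR (1.73% of all genes were) and none had an adjusted p under 0.05 (16.3%) or an unadjusted p under 0.05, and DESeq2 called 0 as well. Their log2 fold changes lay between -0.59 ± 0.67 (TrF0049W) and 0.04 ± 0.27 (TrF0035W). In Rut-C30 and Δ*res2* averaged over the 4 conditions, edgeR and DESeq2 again called 0 members (0.011% of all genes by edgeR, which is 1 gene). None of the 6 had an adjusted p under 0.05 (0.044% of all genes), and 0 had an unadjusted p under 0.05. The log2 differences of Δ*res2* from Rut-C30 lay between -0.95 ± 0.47 (TrF0049W, adjusted p = 0.54) and 0.16 ± 0.42 (TrF0047C, adjusted p = 0.91). For TrF0046C the difference was 0.04 ± 0.09 (adjusted p = 0.90), so the border gene had like levels in both strains within this error. A response to DTT that differed between the strains was found by edgeR for 0 of the 6 members in glucose or in lactose, and for 0 of the 9101 genes (0%), at an adjusted p under 0.05, and 0 of the 6 had an unadjusted p under 0.05 either.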

How the data were processed

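Sequencing gave 1 table per library for the 16 cultures. The values deposited by the authors are counts, whole numbers per gene without normalization. According to the methods and the submitters' processing notes, reads were aligned to QM6a with STAR 2.7.8a, reads with more than 1 alignment were removed, and reads on coding sequences of a custom annotation were counted with HTSeq 0.5.3 (notes also name DESeq2 1.8.1). Positions come from the deposited annotation, which places 9847 of the 10008 counted genes. Groups and replicate numbers came from the sample labels. Nothing pairs cultures across groups. RefSeq tags were paired with genes of the same span whose start lay at a shared offset, within 10 bases, and none of the RefSeq coordinates is printed. The offset was taken from genes tagged in the paper's lists of DE genes, TrF0049W among them, so their tags do not check it. Silent rows skip genes that are not in the count tables. Silence and its windows are described without a test.

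Counts were tested with edgeR 4.0.16 (limma 3.58.1, R 4.3.3) by the quasi-likelihood F test with filterByExpr, TMM scaling, 8 group means and Benjamini-Hochberg adjustment over the 9101 fitted genes. The biological coefficient of variation was 0.355 (0.071 in lactose libraries alone, 0.494 in glucose libraries alone) with 8 residual degrees of freedom. SE is the fold change over the root of F, and fold changes hold a prior count of 0.125. DESeq2 1.42.0, other scalings, filters, limits and left-out libraries were alternatives. The fits were tested on simulated data.

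Named genes are the ends of the longest silent row, its genes with a count, the 5 nearest genes on each side, members called DE and the 5 members highest per kilobase. The members and lists were chosen with earlier results of these data known.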

Additional observations from a re-analysis of the deposited data

Results flagged for a closer look

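For TrF0049W the response to DTT differed between the carbon sources, with a log2 difference (lactose minus glucose, both strains averaged) of -4.09 ± 0.95 (SE, adjusted p = 0.026, edgeR), and 7.41% of the 9101 fitted genes passed the same test. The response was 3.66 ± 0.65 in glucose and -0.43 ± 0.70 in lactose. With each of the 16 libraries left out in turn, the difference lay between -4.55 and -2.99, and the adjusted p, between 0.0031 and 0.081, stayed under 0.05 in 7 of the 16. Without GD replicate 1 of Rut-C30, the library with the highest count, it was -3.49 (adjusted p = 0.056). It also missed 0.05 without any of the 4 LC or the 4 LD libraries (adjusted p between 0.050 and 0.081), and it was -2.99 (adjusted p = 0.020) without GD replicate 2 of Δ*res2*. Glucose duplicates spread more than lactose duplicates in the whole series, and the part of this spread in the difference was not tested.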

How the results depend on the processing

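The number of silent members stayed between 22 and 28 under the alternatives tried, except that 14 had 0 counts in every library. The longest silent row had 7 genes in Rut-C30 or Δ*res2* alone, 2 at 0 counts in every library, 10 with at most 10 counts in every library, and 11 with at most 1 CPM in every library, the last chosen after seeing the data. With each library left out it had 7, and the silent members numbered 24 or 25.

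Calls in single strains come from the fit of all 16 libraries, not from new fits. For GD/GC, 5 members passed an adjusted p under 0.05, 1 was called in Rut-C30 alone, 0 in Δ*res2* alone and 0 with only the libraries of the comparison (chosen after seeing the data). For LD/LC these were 3, 0 and 0, and 1 with only its libraries. For LD/GD, Rut-C30 alone, Δ*res2* alone and only its libraries gave 0. Leaving out each library gave 0 to 2 for GD/GC, 0 to 1 for LD/GD, 1 for LD/LC, and 0 for LC/GC and the strains. DESeq2, its size factors and no filter left the counts at 2, 1, 0, 1 and 0 for GD/GC, LD/LC, LC/GC, LD/GD and the strains, and no named value changed direction.

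With the replicate number as a block the counts were the same 2, 1, 0, 1 and 0. Deviations of same-numbered libraries had r above 0.1 in 6 of 28 pairs of groups (-0.271 to 0.625), so the numbers were not taken as pairs.

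Depth limits what the silent genes can show, since 3 counts in the deepest library are 0.0841 CPM. With 2 cultures per group, precision rests on the spread shared by all groups. This was narrower than the spread of the glucose libraries alone and wider than that of the lactose libraries alone. With only the libraries of the comparison, adjusted p (edgeR) in GD/GC rose to 0.0141 (TrF0049W), 0.0333 (TrF0047C) and 0.0148 (TrF0046C). In LD/GD it rose to 0.0335 for TrF0049W. In LD/LC it fell to 1.06e-15 (TrF0047C) and 1.02e-11 (TrF0046C). These fits also hold fewer libraries.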

Other observations

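A short way right of the window, TrF0055C (195893 to 197328, TRIREDRAFT_64920) had 2250 counts in GD replicate 1 of Δ*res2* and between 17 and 157 counts in each of the other 15 libraries. Its neighbour TrF0056W had between 421 and 27034 counts, with 816 and 2744 in GD of Rut-C30 and 24170 and 4533 in GD of Δ*res2*. Its LD libraries held between 20209 and 27034 counts. TrF0056W was DE in GD/GC (log2 fold change 2.48 ± 0.46, adjusted p = 0.0011, edgeR) and in LD/LC (2.21 ± 0.46, adjusted p = 0.0017), averaged over both strains. In GD/GC its value was 1.39 ± 0.63 for Rut-C30 (adjusted p = 0.11) and 3.57 ± 0.69 for Δ*res2* (0.0025). The difference (2.17 ± 0.89) did not pass the test (adjusted p = 0.91). In LD/LC the value was 2.31 ± 0.65 for Rut-C30 (adjusted p = 0.016) and 2.12 ± 0.65 for Δ*res2* (0.023), so the gene was DE in neither strain alone. The paper lists this gene (TRIREDRAFT_109234, a putative D-aminopeptidase) as DE in both comparisons in Δ*res2* only. TrF0055C was not DE in GD/GC (1.29 ± 0.84, adjusted p = 0.22) or in LD/LC (-0.59 ± 0.81, adjusted p = 0.55). The difference of its GD/GC responses, Δ*res2* minus Rut-C30, was 5.69 ± 1.74 (adjusted p = 0.91). Both genes were picked after their values were seen.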
